A study of Mus musculus with 6 samples.

Results

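The genes examined here are 7 members of the Ms4a family of the mouse, Ms4a4a, Ms4a4b, Ms4a4c, Ms4a6b, Ms4a6c, Ms4a6d and Ms4a7, found by their symbols among 54752 genes counted in RNA-seq of the hippocampus. They are 7 of the 19 genes in the count tables whose symbol begins with Ms4a. Total RNA came from the whole right hippocampus of wild-type (WT) male C57BL/6 mice (C57BL/6 J in the study's methods) labelled 14 weeks of age. The 3 BCAS mice had bilateral carotid artery stenosis, an operation that narrows both common carotid arteries with microcoils and lowers blood flow to the forebrain, and the 3 sham mice had the operation without the coils. In the study's methods the tighter coil was on the right artery, the side sampled here. On that side the paper reported larger infarcts and more microglial activation than on the left. Tissue was taken 3 weeks after surgery, and each library is from a separate mouse. Sham mice gave 34301711 to 35607098 counted reads each, and BCAS mice 29652456 to 31892083. The 7 markers of hippocampal neurons had summed levels of 2636 to 2835 CPM (reads scaled to a common library size) in the sham group and 1399 to 1979 CPM in the BCAS group, much of it Slc17a7 (means 1378 and 853 CPM). Of these markers only Neurod6 was a down-regulated DEG, and Prox1 and Wfs1 overlapped between the groups. Markers of choroid plexus, tissue that lies against the hippocampus, ran from 40.3 to 5913 CPM over the libraries without following the groups.

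Ms4a genes encode small proteins that cross the membrane several times, with both ends inside the cell, and that associate with immune receptors at the cell surface or in endosomes. The founding members mark single lineages: Ms4a1 encodes CD20 of B cells, and Ms4a2 encodes the beta chain of the high-affinity IgE receptor of mast cells. Most of the 7 genes described here are expressed by macrophages, monocytes and microglia. Variants at the human MS4A locus are associated with the risk of Alzheimer's disease and with the level of soluble TREM2. Bulk tissue mixes all cell types, so more cells of a type and more RNA per cell cannot be told apart in any value given here.

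The 7 genes lie together on chromosome 19 (GRCm38, GENCODE M20 coordinates), between chr19:11321039 and chr19:11604849, a stretch of 283.8 kb that holds 17 counted genes. From the centromere side they stand in the order Ms4a7 (chr19:11321039-11336146, minus strand), Ms4a4a (chr19:11375523-11392790, plus), Ms4a4c (chr19:11404770-11427246, plus), Ms4a4b (chr19:11443553-11463549, plus), Ms4a6c (chr19:11469366-11482192, plus), Ms4a6b (chr19:11516512-11531256, plus) and Ms4a6d (chr19:11586604-11604849, minus). The counts are of reads in exons. Ms4a6c differs from the other members in one respect that touches its level: 1088 of its 2050 exon bases, 53.1%, lie opposite exons of BE692007, a gene on the minus strand. Strand was ignored in counting and reads that fell on more than 1 gene were dropped, so reads from those bases count for neither gene. Ms4a4c shares 28 exon bases with Gm5692 and Ms4a6b shares 19 with Gm19261, and the remaining 4 members share none. Close copies were the other concern, since reads placed at several sites were not counted. Of the 100-base stretches of their transcripts, 1.66% of Ms4a4c and 0.47% of Ms4a4b occurred also in another gene, most often each other. No stretch of Ms4a4a, Ms4a6b, Ms4a6d or Ms4a7 did. For Ms4a6c the share was 45.8%, most often in BE692007. Either strand was searched, so the Ms4a6c shares here and below take in the facing exons already described. Those exons are the same place in the genome and not a copy at another site. Of stretches of 50 bases, 8.19% of Ms4a4c, 2.4% of Ms4a4b, 3.57% of Ms4a6b, 2.54% of Ms4a6d, 0.31% of Ms4a7 and 51.4% of Ms4a6c were shared, and none of Ms4a4a.

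The sequences just before the starts of the members are shown as a description. Their part in the changes was not tested. RefSeq (GRCm38.p6) gave the 250 bases before the start for 6 of the 7 members, named Ms4a7, Ms4a4a, Ms4a4c, Ms4a4b, Ms4a6c and Ms4a6b. RefSeq's start need not be the first base of the counted gene. Capitals mark matches, on either strand, to the core of the interferon-stimulated response element (GAAANNGAA, or TTCNNTTTC on the other strand) and to a PU.1 core (GGAAGT, or ACTTCC), PU.1 being the ETS factor that macrophages depend on. Each sequence runs 5′ to 3′ toward the start, and bases that the counted annotation lists as exon are left out, which shortens Ms4a6b to 144 bases.
Ms4a7 (chr19:11336147-11336396, minus strand): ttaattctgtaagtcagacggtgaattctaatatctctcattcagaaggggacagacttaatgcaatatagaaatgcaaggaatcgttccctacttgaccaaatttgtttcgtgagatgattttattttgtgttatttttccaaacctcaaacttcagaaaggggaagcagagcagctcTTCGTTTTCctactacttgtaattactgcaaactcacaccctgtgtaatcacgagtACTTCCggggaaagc
Ms4a4c (chr19:11407411-11407660, plus strand): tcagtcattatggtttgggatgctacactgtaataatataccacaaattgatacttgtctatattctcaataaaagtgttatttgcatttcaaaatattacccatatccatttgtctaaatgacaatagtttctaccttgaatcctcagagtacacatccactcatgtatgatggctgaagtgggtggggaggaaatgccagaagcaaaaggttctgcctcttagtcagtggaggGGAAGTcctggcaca
Ms4a4b (chr19:11443308-11443552, plus strand): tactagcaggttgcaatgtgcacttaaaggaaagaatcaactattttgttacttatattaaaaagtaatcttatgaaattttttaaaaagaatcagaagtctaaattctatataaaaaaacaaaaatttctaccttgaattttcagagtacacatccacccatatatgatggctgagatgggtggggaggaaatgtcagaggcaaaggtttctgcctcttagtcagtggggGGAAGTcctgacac
Ms4a6c (chr19:11469118-11469365, plus strand): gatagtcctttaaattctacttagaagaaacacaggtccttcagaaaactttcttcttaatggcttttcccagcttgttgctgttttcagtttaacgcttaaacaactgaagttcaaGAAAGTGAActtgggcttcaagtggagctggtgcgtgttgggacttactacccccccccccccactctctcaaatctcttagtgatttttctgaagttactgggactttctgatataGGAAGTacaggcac
Ms4a6b (chr19:11518309-11518452, plus strand): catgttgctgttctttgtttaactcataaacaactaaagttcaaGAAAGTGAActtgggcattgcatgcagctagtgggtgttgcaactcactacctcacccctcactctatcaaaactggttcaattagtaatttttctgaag
The PU.1 core was present in 5 of the 6 members with a window, and in 5 of their 7 windows, since Ms4a7 has 2, against 19.7% of 32851 RefSeq windows of the same length. It lay 10 bases before the start in Ms4a7 and Ms4a4c, 14 in Ms4a4b and 11 in Ms4a6c. In Ms4a6b it lay 80 and 38 bases before the start, within bases left out above. The interferon element core was present in 3 members, Ms4a7, Ms4a6c and Ms4a6b, against 7.13% of windows, and lay 63, 125 and 198 bases before their starts. The other RefSeq window of Ms4a7, not shown, held it 140 bases before its start and held no PU.1 core. The interferon-gamma activated site TTCNNNGAA, which reads alike on both strands, was in none of the 6 and in 7.02% of windows. The Ms4a4a window, not shown, held none of these motifs. No match overlapped a match of another motif. A match describes the letters only. Windows of neighbouring genes also resembled each other, and their matches are not separate observations. In local alignments Ms4a4c and Ms4a4b had 114 of 128 aligned positions identical (89.1%), and Ms4a6c and Ms4a6b had 152 of 182 (83.5%). Every other pair aligned over at most 30 positions.

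All 7 members were higher in BCAS mice. Each was an up-regulated DEG, that is, it had an adjusted p under 0.05 in edgeR's quasi-likelihood test and a log2 fold change above 1, a rule met by 8.47% of the 18617 genes tested. The median log2 fold change of the members was 3.83 (2.14 to 5.38), against 0.018 over all tested genes. No member was lower, as 0.999% of tested genes were by the mirrored rule. The highest value is that of Ms4a4c, whose sham mice were at the limit of detection, and the median is the same for any value of that gene above 3.83. In each of the 7 genes the lowest BCAS mouse exceeded the highest sham mouse, which 25.3% of tested genes did. All members passed the filter on low counts. Their sham libraries held 1 to 69 reads, against 11 to 411 in BCAS libraries. Ms4a4a, Ms4a4b, Ms4a4c, Ms4a6c and Ms4a7, with 1 to 16 reads in each sham library, passed through their BCAS libraries, and their being higher there is in part a condition of being tested.

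**Figure D1:**
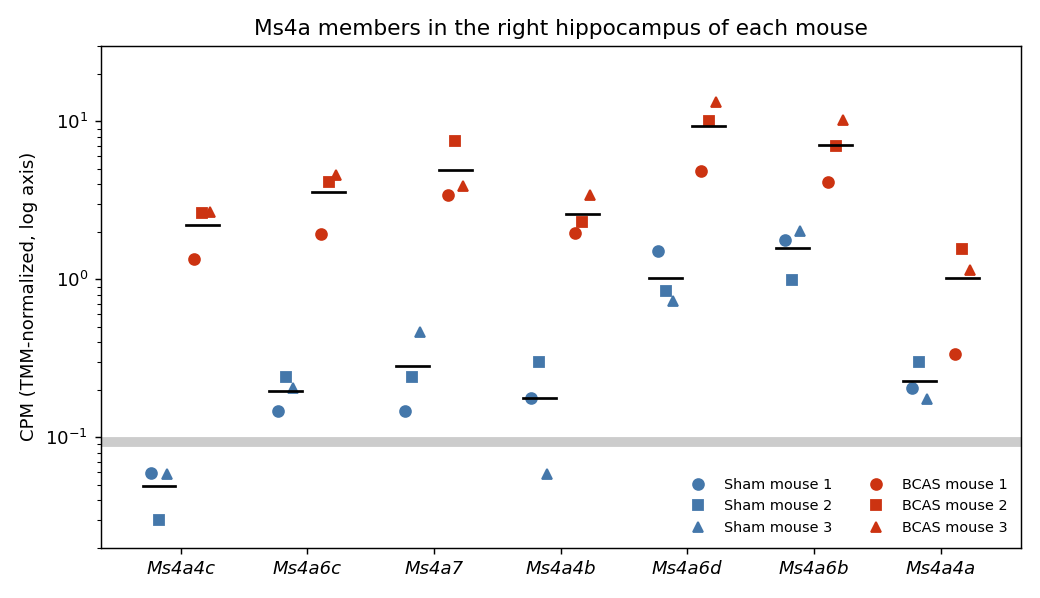
CPM of each Ms4a member in each mouse, on a log axis, with the member of the largest log2 fold change at the left. Each symbol is 1 mouse, each black line the mean of 3 mice, and the grey band the CPM that 3 reads give (0.0874 to 0.0994); in every member all BCAS mice sit above all sham mice, most narrowly in Ms4a4a.

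The members Ms4a4a, Ms4a4b and Ms4a4c held few reads in sham mice, 1 to 10 per library. Ms4a4c, which is induced by interferon in myeloid cells, held 2, 1 and 2 reads in sham mice 1 to 3 and 44, 79 and 83 in BCAS mice 1 to 3. All sham mice were thus at or under 3 reads, taken here as the limit of detection, and no BCAS mouse was near it. The ratio of pooled reads per library size was 44.6, with a 95% interval of 18.8 to 139 (exact binomial) that covers counting error only and takes each read as independent. Mates of a fragment were counted separately, so that interval is too narrow, and with the pooled reads halved, a calculation added after seeing the data, the ratio was 55.7 with an interval of 15 to 466. In CPM the means were 0.0491 ± 0.0166 (SD, n = 3) and 2.21 ± 0.742, and edgeR's adjusted p was 0.000122. Ms4a4b, a T cell gene whose product associates with the costimulatory receptor GITR, measured 0.177, 0.299 and 0.0583 CPM in sham mice and 1.97, 2.32 and 3.43 CPM in BCAS mice. The spread among sham mice came from 2 to 10 reads, and the groups were well apart. Its log2 fold change was 3.83 (SE 0.49, adjusted p 0.000631 by edgeR), and the mean rose 14.4-fold. T cell markers moved with it: 8 of 10 were up-regulated DEGs, of which 7 had at most 10 reads in each sham library and so, like Ms4a4b, passed the filter through BCAS libraries. Their summed level, 2.95 to 4.08 CPM in the sham group, reached 12.9 to 15.1 CPM after BCAS. Their part in the rise of Ms4a4b was not tested.

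Ms4a4a, whose human counterpart binds the beta-glucan receptor dectin-1 on macrophages, was the least certain of the members. It held 7, 10 and 6 reads in sham mice and 11, 47 and 36 in BCAS mice, or 0.206, 0.299 and 0.175 CPM against 0.338, 1.56 and 1.15 CPM. BCAS mouse 1 stood only 1 read above the highest sham mouse, and BCAS mouse 2 was 4.6 times BCAS mouse 1. The log2 fold change was 2.14 (SE 0.60, adjusted p 0.0249 by edgeR). The call was lost when any 1 sham mouse, BCAS mouse 2 or BCAS mouse 3 was left out, with log2 fold changes of 1.69 to 2.38 and adjusted p of 0.0525 to 0.0948. It was also lost with limma-voom (log2 fold change 1.86, adjusted p 0.0737) and when the fold change was tested against the threshold itself with glmTreat (adjusted p 0.295).

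Ms4a6d and Ms4a6b held the most reads of the family. Ms4a6d, a macrophage gene, measured 1.5, 0.837 and 0.728 CPM in sham mice and 4.86, 10.1 and 13.2 CPM in BCAS mice. The groups did not overlap, and within BCAS the highest mouse was 2.71 times the lowest, the widest such spread after Ms4a4a. The mean went from 1.02 ± 0.42 to 9.39 ± 4.2 CPM (SD, n = 3), a log2 fold change of 3.19 (SE 0.41, adjusted p 0.000657 by edgeR). Ms4a6b, expressed in T cells and macrophages, measured 1.77, 0.987 and 2.01 CPM in sham mice and 4.15, 6.96 and 10.2 CPM in BCAS mice. It was the member with the most reads in sham mice, 162 in all, and one of the smallest changes, a log2 fold change of 2.16 (SE 0.37, adjusted p 0.00297). Ms4a6c, found in monocytes and macrophages, measured 0.147, 0.239 and 0.204 CPM in sham mice and 1.94, 4.14 and 4.55 CPM in BCAS mice. Sham mice lay close together and each BCAS mouse was far above them, and the log2 fold change was 4.14 (SE 0.43, adjusted p 0.000201). These reads come only from the part of Ms4a6c that does not face BE692007. BE692007 itself held 6, 9 and 8 reads in sham mice and 18, 46 and 47 in BCAS mice, which do not overlap. Its log2 fold change was 2.38 (SE 0.50, adjusted p 0.00779). Reads of either gene outside the shared bases were counted without strand as well.

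Ms4a7, known in the mouse brain as a gene of macrophages at its borders (meninges, vessels and choroid plexus), measured 0.147, 0.239 and 0.466 CPM in sham mice and 3.41, 7.45 and 3.88 CPM in BCAS mice. BCAS mouse 2 was the highest, and BCAS mice 1 and 3 were near each other. The log2 fold change was 4.09 (SE 0.47, adjusted p 0.000333 by edgeR), and the mean rose 17.3-fold. Of the 9 markers of border macrophages, 7, Mrc1 and Cd163 among them, were up-regulated DEGs. Another of the 7, Folr2, had 4, 4 and 7 sham reads and passed the filter through its BCAS libraries. Lyve1 (log2 fold change 0.14, adjusted p 0.825) and Pf4 (0.70, adjusted p 0.17) were not called. Over the list the median was 1.30 (log2 fold change), and its summed levels were 24.9 to 34.9 CPM (sham) and 76.4 to 126 CPM (BCAS). Stab1 gave most of these sums, and without it (a calculation added after seeing the data) they were 10.6 to 15.6 and 28 to 36.4 CPM. The BCAS mouse with the highest Ms4a7 had the lowest choroid plexus markers, 40.3 CPM, against 5913 and 3205 in BCAS mice 1 and 3. Sham mouse 3, highest for Ms4a7 among sham mice, was the lowest sham mouse for choroid plexus markers, at 69.8 CPM. The part of either tissue in the level of Ms4a7 was not tested.

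The members did not all peak in the same BCAS mouse. All 7 were lowest in BCAS mouse 1, 5 were highest in BCAS mouse 3, and Ms4a4a and Ms4a7 were highest in BCAS mouse 2. Among all 1576 up-regulated DEGs, 83.2% were highest in BCAS mouse 3 and 9.71% in BCAS mouse 2, while 55.5% were lowest in BCAS mouse 1, as were all 12 pan-myeloid markers described below. Over the 7 genes the summed level was 4.01, 2.93 and 3.7 CPM in sham mice 1 to 3 and 18.0, 35.2 and 39.0 CPM in BCAS mice 1 to 3. Since no member overlapped between the groups, this sum could not overlap either.

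Levels were compared between genes as CPM per kilobase of exon. In sham mice the order was Ms4a6d (0.59 ± 0.242, SD, n = 3), Ms4a6b (0.354 ± 0.119), Ms4a4a (0.271 ± 0.0773), Ms4a6c (0.096 ± 0.0226), Ms4a7 (0.0638 ± 0.0368), Ms4a4b (0.0338 ± 0.0228) and Ms4a4c (0.028 ± 0.00947). Ms4a4a and Ms4a6c were the only neighbours in this order whose mice did not overlap. In BCAS mice the order was Ms4a6d (5.41 ± 2.42), Ms4a6c (1.73 ± 0.685), Ms4a6b (1.58 ± 0.677), Ms4a4c (1.26 ± 0.424), Ms4a4a (1.22 ± 0.742), Ms4a7 (1.1 ± 0.496) and Ms4a4b (0.488 ± 0.144). Ms4a6d stood clear of Ms4a6c and Ms4a7 of Ms4a4b, and all other neighbours overlapped. The place of Ms4a6c depends on the bases it shares: divided by its 0.962 kb outside BE692007, it reached 0.205 ± 0.0481 (sham) and 3.68 ± 1.46 (BCAS), and then it overlapped Ms4a4a in sham mice and Ms4a6d in BCAS mice. That calculation was chosen after seeing the data.

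**Figure D2:**
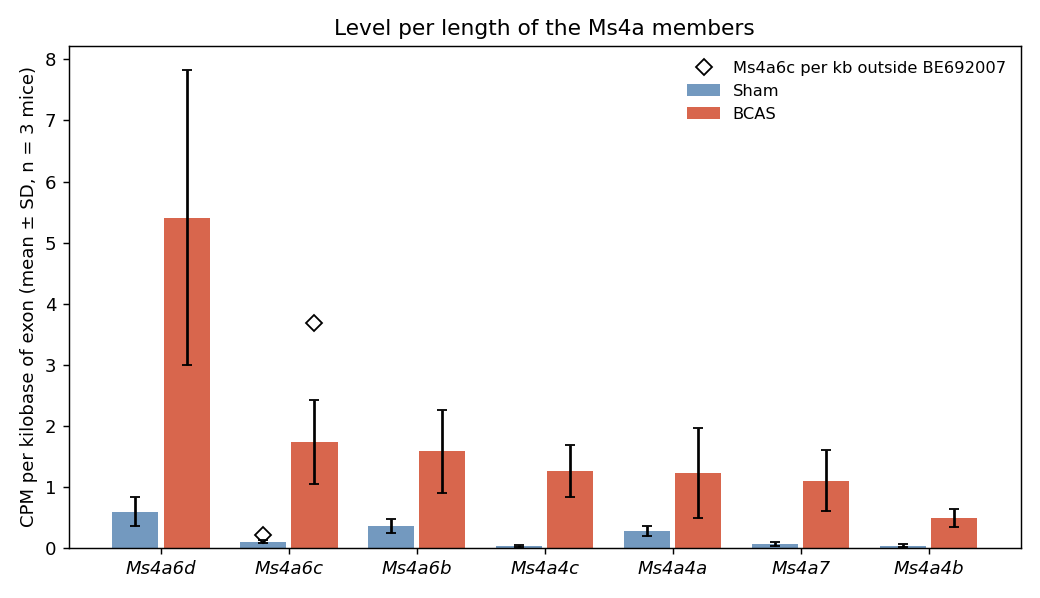
CPM per kilobase of exon of each Ms4a member, ordered by its level in BCAS mice. Bars are means and whiskers the SD of 3 mice; diamonds give Ms4a6c per kilobase outside BE692007. Ms4a6d is the highest bar in both groups, at 0.59 and 5.41.

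The make-up of the family differed between the groups on the same scale. Ms4a6d had the highest mean share of the summed CPM per kilobase in both, 40.1% (31.7% to 51.6%) in sham and 41.8% (39.3% to 46.0%) in BCAS mice, and in sham mice it overlapped Ms4a6b. The share of Ms4a4c was 1.31% to 2.51% in the sham group and 9.2% to 11.1% in the BCAS group, without overlap. Ms4a6b gave a smaller share after BCAS, 10.4% to 13.8% against 16.9% to 33.8%, also without overlap. So did Ms4a4a, at 5.79% to 12.5% against 14.7% to 27.4%. Ms4a6c gave 4.28% to 8.95% (sham) and 13.4% to 13.6% (BCAS), without overlap. Ms4a7, at 1.97% to 7.9% (sham) and 5.27% to 11.2% (BCAS), overlapped, and so did Ms4a4b, at 0.833% to 4.35% (sham) and 2.95% to 5.34% (BCAS). With the exon bases shared with other genes left out, a calculation added after seeing the data, Ms4a6c gave 8.69% to 17.3% (sham) and 24.8% to 25.0% (BCAS). The mean shares of Ms4a6d were then 37.3% (sham) and 36.2% (BCAS), and which members overlapped between the groups was the same. These shares carry no test, and a gene's share moves with every other member.

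Around the 7 members, the whole run of Ms4a genes spans 678.6 kb (chr19:10962293-11640851) and holds 36 counted genes, of which 12 had enough reads to be tested and 10 were up-regulated DEGs, against 8.47% of all tested genes. Of these 10, Ms4a14 and BE692007 passed the filter through their BCAS libraries, as did the 5 members named above, so their being higher is in part a condition of being counted among the 12. The 3 that are not members were AW112010, a gene induced in macrophages by bacterial stimuli, with 35, 42 and 52 reads in sham mice and 120, 132 and 208 in BCAS mice (log2 fold change 1.95, SE 0.29, adjusted p 0.00131 by edgeR), BE692007, and Ms4a14. Ms4a14, the neighbour of Ms4a7, held 11, 7 and 0 reads in sham mice and 29, 45 and 21 in BCAS mice. Its log2 fold change was 2.49 (SE 0.76, adjusted p 0.0349). The call on Ms4a14 was lost when sham mouse 1, sham mouse 2 or any 1 BCAS mouse was left out. Within the stretch of the members, Gm8369, between Ms4a6c and Ms4a6b, was tested and not called, with 7, 8 and 17 reads in sham mice and 9, 13 and 27 in BCAS mice (log2 fold change 0.73, SE 0.57, adjusted p 0.369). Gm336 was the other tested gene that was not called (log2 fold change -0.45, SE 0.46, adjusted p 0.495).

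**Figure D3:**
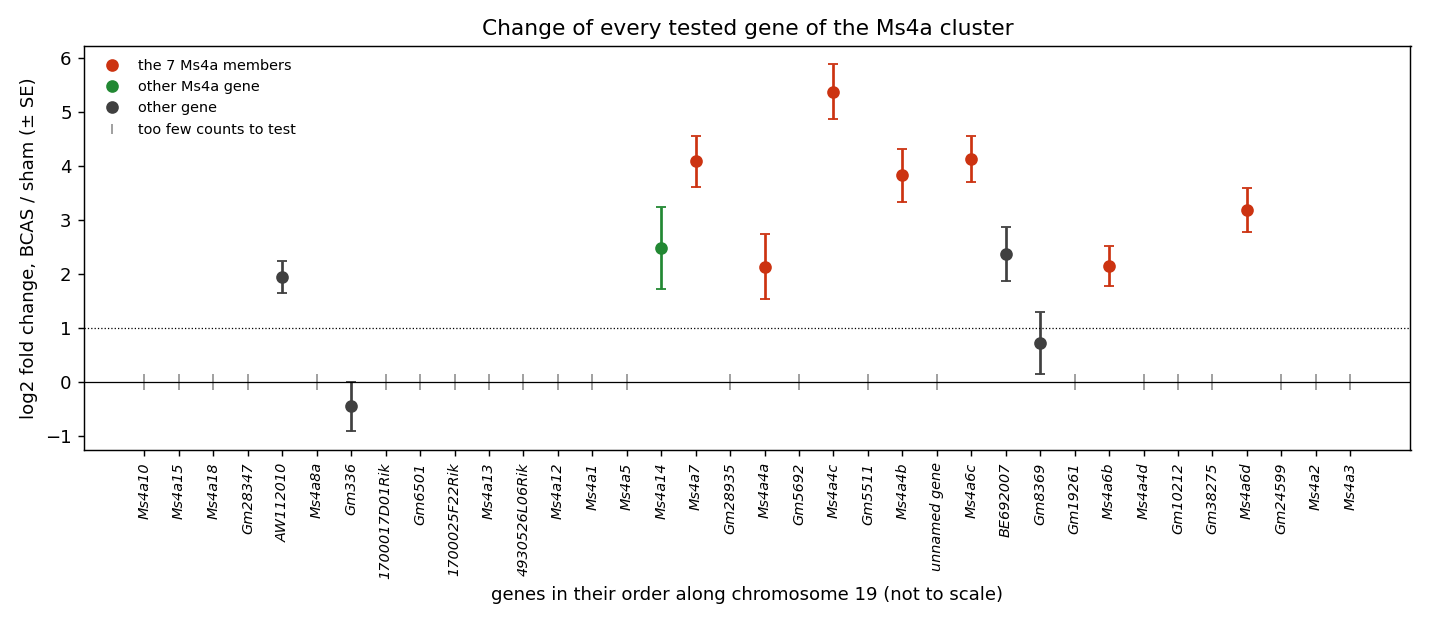
Log2 fold change with its SE for each tested gene of the Ms4a cluster, in the order of the genes along chromosome 19 (distances not to scale). Red marks the 7 members, green Ms4a14, dark grey other genes, ticks on the zero line genes with too few reads to test, and the dotted line the threshold of 1; the members stand from 2.14 to 5.38, and Gm8369 among them at 0.73.

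The lineage genes of the family were close to absent. Of the 12 other genes with an Ms4a symbol, 11 were too low to test, none of those exceeded 13 reads in a library, and 4 (Ms4a5, Ms4a12, Ms4a13 and Ms4a18) had 0 reads in all 6 libraries, which allows a level of up to 3 reads, or 0.0874 to 0.0994 CPM. If both mates of each fragment counted, it allows up to 6 reads, or 0.175 to 0.199 CPM. Ms4a1, the CD20 gene, held 0, 2 and 2 reads in sham mice and 12, 2 and 2 in BCAS mice. Ms4a2, of mast cells, held 2 reads in sham mouse 2 and 0 elsewhere, and Ms4a3, of early myeloid cells of the marrow, held 1 read in sham mouse 1 and 0 elsewhere. Ms4a4d, which lies between Ms4a6b and Ms4a6d, held 6, 6 and 0 reads in sham mice and 4, 13 and 0 in BCAS mice. Its groups overlapped. Ms4a10, Ms4a15 and Ms4a8a had at most 2 reads in any library.

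Genes whose products are known to work with MS4A proteins, or to resemble them, rose in most cases. Of 10 such genes 9 were tested and 7 were up-regulated DEGs, with a median log2 fold change of 1.61. The relatives Tmem176a and Tmem176b, membrane proteins of dendritic cells and macrophages, went from 10.9 ± 1.06 to 33.3 ± 7.04 CPM (log2 fold change 1.61, adjusted p 0.000165 by edgeR) and from 21.8 ± 1.91 to 59.6 ± 4.44 CPM (1.45, 2.39e-05). Trem2, the lipid receptor of microglia, went from 10.7 ± 1.36 to 216 ± 41.6 CPM (log2 fold change 4.33, adjusted p 4.87e-06), and its adaptor Tyrobp from 7.84 ± 0.422 to 125 ± 27.3 CPM (3.99, 4.87e-06). Clec7a, which encodes dectin-1, rose most, from 0.669 ± 0.346 to 103 ± 23.9 CPM (7.25, 4.87e-06). Of the proteases that shed TREM2, Adam17 was called (log2 fold change 1.41, adjusted p 0.000322) and Adam10 was under the fold threshold (0.37, adjusted p 0.00767). Of the IgE receptor chains that pair with the Ms4a2 product, Fcer1g, which other Fc receptors also use, was called (3.66, adjusted p 1.43e-05) and Fcer1a had 0 reads in all libraries. Tnfrsf18, which encodes GITR, went from 1.2 ± 0.415 to 1.8 ± 0.364 CPM and did not pass (0.59, adjusted p 0.21).

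Markers of myeloid cells moved with the family, and the members were therefore also set against them. All 12 pan-myeloid markers (Csf1r, Aif1, C1qa and others, with Fcer1g and Tyrobp among them) were up-regulated DEGs, with a median log2 fold change of 3.70 (2.58 to 4.17) and a summed level of 253 to 281 CPM (sham) against 2308 to 3879 CPM (BCAS). All 10 markers of homeostatic microglia (P2ry12, Tmem119 and others) were also called, at a median of 2.50 and a sum of 291 to 313 against 1568 to 2532 CPM. Of 9 monocyte markers 7 were tested and 3, Ly6c2, Ccr2 and Plac8, were up-regulated DEGs, and these 3 did not overlap between the groups (25.3% of tested genes had every BCAS mouse above every sham mouse): Ly6c2 had means of 0.00997 and 1.97 CPM, Ccr2 of 0.501 and 4.35 CPM and Plac8 of 0.0782 and 1.95 CPM, sham against BCAS. Ly6c2 (0, 1 and 0 sham reads) and Plac8 (4, 0 and 4) passed the filter through BCAS libraries. The summed level of the list (112 to 182 and 101 to 196 CPM) came mostly from Ace, Nr4a1 and Vcan. Of these Ace ranged from 15.8 to 138 CPM over the libraries, and Nr4a1 averaged 72.6 CPM in sham and 37.5 CPM in BCAS mice. Of the dendritic cell list 2 of 6 were called, Xcr1 and Siglech, and Siglech is also on the list of homeostatic microglia. It averaged 14.0 and 69.0 CPM, sham against BCAS, and Xcr1, which also passed through BCAS libraries, 0.049 and 0.341 CPM. The median log2 fold change of the dendritic cell list was 0.72, from -0.30 (Flt3) to 2.70 (Xcr1). Of the B cell list 1 of 6 was called (Cd79b). Markers of NK cells, neutrophils and mast cells were mostly too low to test (1, 2 and 0 of 6 tested). Their summed levels, sham against BCAS, were 0.524 to 1.62 and 1.66 to 3.23 CPM for NK cells, 0.508 to 2.27 and 0.707 to 3.44 CPM for neutrophils, with Ly6g at 0 reads throughout, and 0.0874 to 0.236 and 0.0641 to 0.553 CPM for mast cells. Eomes, the only NK marker tested, gave most of the NK sum in sham mouse 1 (1.56 CPM) and BCAS mouse 1 (1.88 CPM). It overlapped between the groups (log2 fold change 0.53, adjusted p 0.62 by edgeR). The other NK markers did not overlap, with at most 17 reads in a library. Astrocyte markers moved with the family as well: 2 of 4, Gfap (log2 fold change 3.29) and Aqp4 (1.67), were up-regulated DEGs. Aldh1l1 (0.82) and Slc1a3 (0.65) were under the fold threshold. The list summed to 1132 to 1261 CPM (sham) against 4965 to 5461 CPM (BCAS), most of the latter Gfap (mean 3674 CPM). Oligodendrocyte markers stood at a median of 0.13 (log2 fold change), with overlapping sums of 4087 to 4970 and 4752 to 7138 CPM. The part of any of these cell types in the rise of the members was not tested.

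On the log2 scale with a prior count of 2, the mean of the pan-myeloid markers rose by 3.51, and the level of each member was taken relative to that mean within each mouse. The prior count understates the change of low genes. Ms4a4c was 0.80 higher relative to the markers in BCAS than in sham mice, with no overlap, and 1.56 higher with a prior count of 0.5, its sham mice holding 1 or 2 reads. Ms4a6b was lower by this measure in all BCAS mice (difference -1.42), and so was Ms4a4a (difference -1.81). Ms4a4b (0.05), Ms4a6c (0.22), Ms4a6d (-0.44) and Ms4a7 (0.36) overlapped between the groups. Ms4a4b lay at -5.84, -5.80 and -5.81 in BCAS mice, from 64, 70 and 107 reads. In sham mice it lay at -5.72, -5.01 and -6.86, from 6, 10 and 2 reads. Counting error at such read numbers is wider than the spread among the BCAS mice, so that closeness is not read as a trait of the gene. The markers of homeostatic microglia rose less, by 2.43, and against them 4 members, Ms4a4c (1.88), Ms4a7 (1.43), Ms4a6c (1.29) and Ms4a4b (1.13), were higher in all BCAS mice, and Ms4a6d (0.64), Ms4a6b (-0.35) and Ms4a4a (-0.73) overlapped. The order of the members was alike against both lists by construction.

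**Figure D4:**
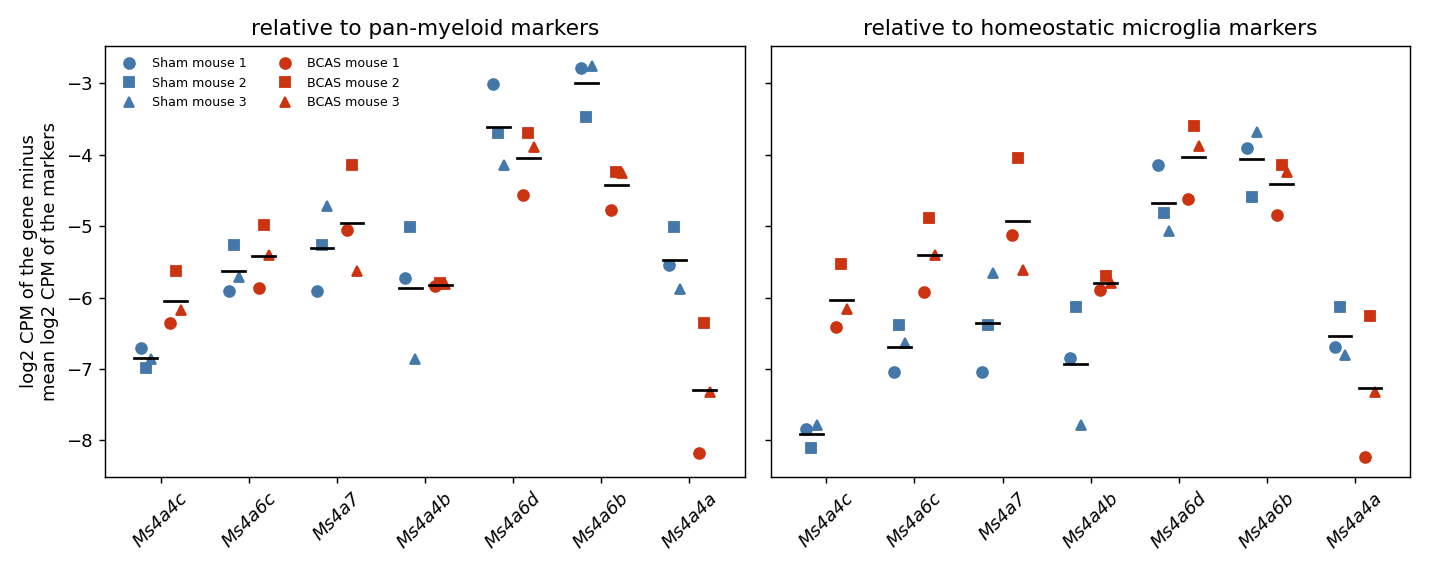
Log2 CPM of each Ms4a member minus the mean log2 CPM of 12 pan-myeloid markers (left) or 10 homeostatic microglia markers (right) in each mouse, with black lines at the means of 3 mice. Against the pan-myeloid list the BCAS mice are above the sham mice for Ms4a4c, below them for Ms4a6b and Ms4a4a, and mixed with them for the remaining 4 members.

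Over the 6 mice the profiles of the members, each centred on its sham mean, were compared with those of all tested genes by their root mean square difference in log2 CPM with a prior count of 2. This describes 6 libraries that share the BCAS and sham contrast, with no test. Ms4a6c was nearest to Tmem106a (0.137), Lgals3 (0.174), the gene of galectin-3, which went from 1.29 to 21.5 CPM, and Sh2d2a (0.223). Ms4a4b was nearest to A2m (0.141), the gene of the protease inhibitor alpha-2-macroglobulin, then Tent5c (0.253) and Tmem273 (0.282). Ms4a4c was nearest to Ifi213 (0.164), an interferon-inducible gene, then Arl11 (0.181) and Olfr110 (0.218). Ms4a6b was nearest to Casp12 (0.176), an inflammatory caspase, and to the interferon-inducible GTPase Ifi47 (0.196) and Fam180a (0.21), with 302 genes within 0.5 of it. Ms4a6d was nearest to the complement receptor C5ar1 (0.211), which went from 0.6 to 5.83 CPM, then Naip3-ps1 (0.211) and Gm12185 (0.225). Ms4a7 had the least company, with 8 genes within 0.5: the nearest were Igha (0.355), an immunoglobulin heavy chain gene, Gm15880 (0.403) and Tnf (0.426). Ms4a4a was too low for this comparison. Among the members themselves, Ms4a6c was closest to Ms4a7 (0.49) and Ms4a4c (0.499). The prior count draws genes with almost no sham reads together. Olfr110 and Sh2d2a were at 0 CPM in all sham mice. With a prior count of 0.5, tried after seeing the data, the differences grew to 0.927 for Olfr110, 1.29 for Sh2d2a, 1.06 for Naip3-ps1, 0.985 for Gm15880 and 1.2 for Tnf, while the other 13 pairs ranged up to 0.514. Of those, A2m moved from 0.141 to 0.387, Ifi213 from 0.164 to 0.422 and Arl11 from 0.181 to 0.402. Among the named genes the nearest then was Arl11 for Ms4a4c and Lgals3 (0.149 against 0.207 for Tmem106a) for Ms4a6c.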

How the data were processed

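RNA-seq of the right hippocampus was measured in 3 sham and 3 BCAS mice, grouped by the labels' titles. The authors trimmed the reads, aligned them with HISAT2 to mm10 and deposited raw counts per gene, with no normalization. Per the file headers, featureCounts 2.0.3 with GENCODE M20 counted mates separately, without strand, and dropped reads on several sites or genes, while the submitters' processing notes name featureCounts 1.6.3. Of the 54752 genes, 29 had no symbol. Mice carry the replicate numbers of the labels, 1 to 3. The columns inside the BCAS tables are numbered 2 to 4, and the block and pairing check rest on the labels' numbers. The members and all lists were chosen with earlier results of these data known.

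Counts were filtered with filterByExpr, normalized by TMM (factors 0.964 to 1.05) and the groups were compared by the quasi-likelihood test of edgeR 4.0.16 in R 4.3.3, without a replicate block. The Benjamini-Hochberg adjustment ran over all 18617 tested genes. edgeR gives no SE, so each SE printed with its fold changes is the absolute log2 fold change divided by the square root of the test's F statistic. The call rule for DEGs was that of the study's methods: adjusted p below 0.05 with a log2 fold change beyond 1 in either direction. CPM used TMM library sizes, and a limit of 3 reads covers counting error only. The genes named are the members, all other Ms4a symbols, the genes that share exons with or neighbour them, listed partners and markers, and, for each member with a mean of at least 1 CPM, the 3 tested genes nearest in profile. Libraries of a group differed by more than sampling noise (mean chi-square per gene 12.9 to 44.1), so none was a copy. The alternatives were DESeq2 1.42.0, limma-voom (limma 3.58.1), glmTreat, RLE or total scaling, other filters, halved counts, the replicate number as a block and leaving out each mouse. The fit was tested on simulated data.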

Additional observations from a re-analysis of the deposited data

How the results depend on the processing

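The count of called members was 7 or 6 under each of the 16 alternatives, and Ms4a4a was the member lost each time. It was lost with limma-voom (log2 fold change 1.86, adjusted p 0.0737), with glmTreat against a log2 fold change of 1 (2.14, adjusted p 0.295), with halved counts, where it failed the filter, and in 5 of 6 fits that left out a mouse (1.69 to 2.38, adjusted p 0.0525 to 0.0948). Without BCAS mouse 1 it was called, at 2.56 (adjusted p 0.00502). The other 6 members kept their call in each of their 15 alternatives, with log2 fold changes of 3.41 to 4.41 for Ms4a4b, 5.09 to 5.64 for Ms4a4c, 1.80 to 2.43 for Ms4a6b, 3.92 to 4.44 for Ms4a6c, 2.86 to 3.57 for Ms4a6d and 3.65 to 4.64 for Ms4a7. With the replicate number as a block all 7 were called, with Ms4a4a at an adjusted p of 0.0417, and DEGs higher in BCAS mice went from 1576 to 1437. Deviations of equally numbered mice correlated at 0.036, -0.314 and -0.158, so the numbers were not taken to pair the mice. The count of other Ms4a genes called, 1 (Ms4a14), was 0 under glmTreat and 0 to 1 with a mouse left out. Levels relative to pan-myeloid markers moved most with the list, since the lists themselves rose by 3.51 and 2.43: against homeostatic microglia the differences were -0.73 for Ms4a4a, 1.13 for Ms4a4b, 1.88 for Ms4a4c, -0.35 for Ms4a6b, 1.29 for Ms4a6c, 0.64 for Ms4a6d, where the sign turned, and 1.43 for Ms4a7. With a prior count of 0.5 Ms4a4c was at 1.56, Ms4a7 at 0.58, Ms4a6c at 0.48 and Ms4a4b at 0.42. Ms4a6d was then at -0.38, Ms4a6b at -1.4 and Ms4a4a at -1.65. With a mouse left out Ms4a4b ranged from -0.45 (without sham mouse 3) to 0.48, Ms4a7 from -0.04 (without BCAS mouse 2) to 0.70, Ms4a6c from 0.00 to 0.44 and Ms4a6d from -0.70 to -0.13. The cause of the shifts with a mouse left out was not tested. Depth limits the sham values of Ms4a4a, Ms4a4b, Ms4a4c, Ms4a6c and Ms4a7, which held 1 to 16 reads in each sham library.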
